A study of Mus musculus with 6 samples.

Results

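Endothelial cells line blood vessels, and 10 genes that mark them were followed in mouse tibia: Pecam1, Cdh5, Emcn, Kdr, Flt1, Tek, Tie1, Ptprb, Plvap and Stab2. The genes were chosen by name, as markers of all endothelium, of the type H capillaries of growing bone and of marrow sinusoids. Each of the 10 symbols matched 1 of the 56748 gene identifiers in the count tables, and all 10 passed the filter on low counts, in which 18514 genes were tested. RNA came from the tibia of female mice aged 12 weeks, from 3 samples labelled Col1a1+/-, heterozygous for the gene of the type I collagen alpha 1 chain, and 3 wild-type samples. The labels give no strain, no allele and no treatment, although the series title names an anti-TGF-beta treatment and a mouse model of osteogenesis imperfecta type I, in which bones break easily. The marrow was flushed out before the bone was frozen and ground, and RNA was selected by its poly-A tail. Nothing in the labels states that the samples are different mice, and every p-value here therefore reflects the spread among these samples alone.

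Bone vessels are built by vascular endothelial growth factor (VEGF), which acts through the receptor VEGFR2 and is held back by the high-affinity receptor VEGFR1. Once formed, they are kept stable by angiopoietins, which act through the receptor TIE2. In bone, capillaries near the growth plate and the inner bone surface carry much CD31 (PECAM1) and endomucin and are called type H, and osteoblast precursors gather around them. Sinusoids are wide, leaky marrow vessels whose endothelium takes up waste molecules through scavenger receptors such as stabilin-2.

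The sequence just before the start site is shown for the 6 of these genes with an entry in the RefSeq promoter table (build GRCm38.p6, 150 bases that end at the start site, 5′ to 3′ on the gene's strand), because the GGAA core of ETS factors, which drive many endothelial genes, can be read in each. Capitals mark GGAA on either strand (TTCC on the strand shown).
Emcn: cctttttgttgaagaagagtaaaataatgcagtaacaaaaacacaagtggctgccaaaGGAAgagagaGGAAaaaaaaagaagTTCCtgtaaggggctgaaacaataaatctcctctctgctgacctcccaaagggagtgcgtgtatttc
Kdr: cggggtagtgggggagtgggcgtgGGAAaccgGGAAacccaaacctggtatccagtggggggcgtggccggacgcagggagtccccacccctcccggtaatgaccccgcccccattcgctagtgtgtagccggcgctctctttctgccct
Flt1: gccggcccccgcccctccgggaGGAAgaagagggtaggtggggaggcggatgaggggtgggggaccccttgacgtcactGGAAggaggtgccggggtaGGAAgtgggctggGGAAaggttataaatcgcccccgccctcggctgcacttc
Tek: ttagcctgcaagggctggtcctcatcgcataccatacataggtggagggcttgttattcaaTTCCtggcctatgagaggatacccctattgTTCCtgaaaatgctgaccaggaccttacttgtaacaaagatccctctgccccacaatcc
Tie1: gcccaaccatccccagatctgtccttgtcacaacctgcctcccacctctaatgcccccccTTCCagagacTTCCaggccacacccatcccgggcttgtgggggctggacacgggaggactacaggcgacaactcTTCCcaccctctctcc
Stab2: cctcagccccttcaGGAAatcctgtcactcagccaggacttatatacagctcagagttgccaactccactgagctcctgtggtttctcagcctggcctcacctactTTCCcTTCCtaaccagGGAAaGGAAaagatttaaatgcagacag
These windows lie at chr3:137340928-137341077 (plus strand) for Emcn, chr5:75978456-75978605 (minus) for Kdr, chr5:147726012-147726161 (minus) for Flt1, chr4:94739139-94739288 (plus) for Tek, chr4:118489850-118489999 (minus) for Tie1 and chr10:87007943-87008092 (minus) for Stab2. All 6 windows held GGAA, as did 80.8% of 32817 mouse promoter windows of the same length, where the median was 2 matches. Stab2 had 5 matches, a number that 3.91% of all windows reached, Flt1 had 4 (10.9%), Emcn and Tie1 had 3 (26.1%), and Kdr and Tek had 2 (50.9%). TATAAA, searched on both strands, was found in 1 of the 6 windows, that of Flt1, and in 7.58% of all windows. GATAA, the core bound by GATA factors, was in 0 of 6 and in 13.4% of all. The windows differed in composition, from 40.7% G and C in Emcn to 68% in Flt1. Matches are descriptions of the letters and were not tied to any binding here.

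All 10 endothelial genes were detected in every library of flushed bone, and their levels in the 2 genotypes lay close together. None of the 10 passed an adjusted p of 0.05 in either direction, and the fold changes ran from 0.819 to 1.26. Across all tested genes 803, or 4.34%, passed that threshold by edgeR (1.43% higher and 2.91% lower in Col1a1+/-). At an unadjusted p under 0.05 there were 2 of the 10, Stab2 and Plvap, beside 22.8% of all genes. DESeq2 and limma-voom likewise called 0 of the 10, beside 12.2% of all genes in DESeq2 (4.26% higher and 7.93% lower) and 4.34% in limma-voom (1.4% higher and 2.94% lower). The median log2 fold change of the 10, Col1a1+/- over wild type, was -0.05, and that of all tested genes was -0.01. Of the 10, 4 had a fold change above 0 and 6 below, beside 9090 and 9424 of all tested genes. The smallest adjusted p was 0.169 in edgeR and ranged from 0.0859 to 0.872 over 16 other ways of processing the counts, in each of which 0 were called. In 2 genes, Ptprb and Stab2, all 3 Col1a1+/- libraries lay below all 3 wild-type libraries, and in none above; 28.6% of all tested genes had genotypes that did not overlap (14.5% lower and 14% higher). With bulk RNA, a change in the number of endothelial cells and a change in these transcripts per cell cannot be told apart.

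**Figure D1:**
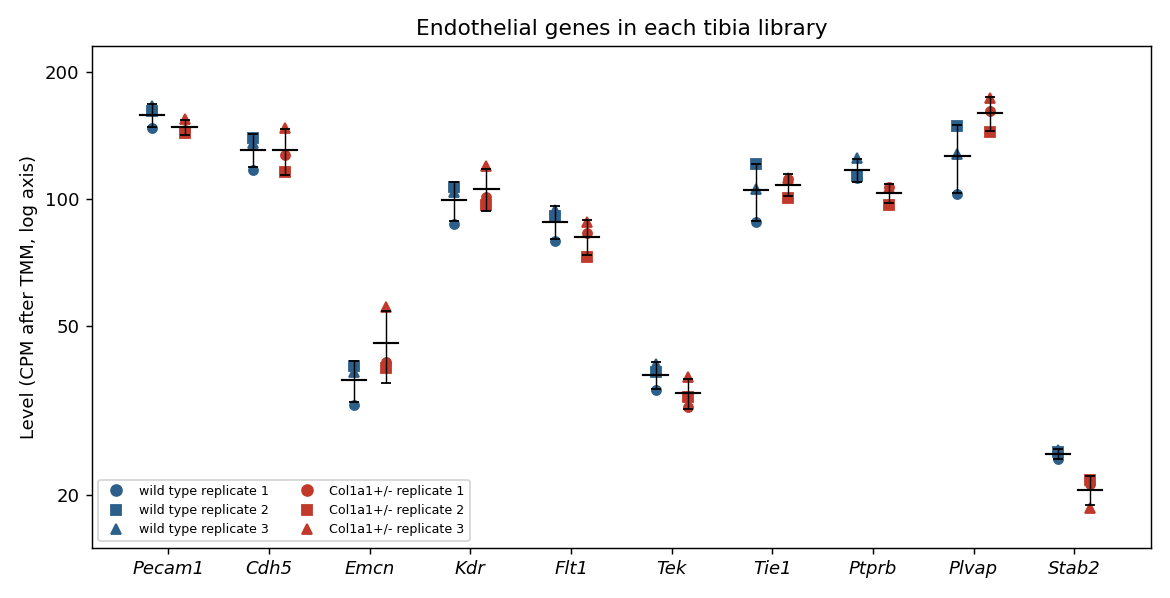
Level of each of the 10 endothelial genes in each library, in CPM after TMM scaling on a log axis; symbols are libraries, bars are genotype means and whiskers 1 SD (n = 3). The genotypes overlap in 8 genes, whereas in Ptprb and Stab2 the red Col1a1+/- symbols all lie below the blue wild-type symbols.

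Levels are given in CPM, the reads of a gene per 1 M reads of its library after TMM scaling. The libraries held 26.8 to 32.4 M counted reads, so the members rested on 528 (Stab2, Col1a1+/- replicate 3) to 5395 (Plvap, Col1a1+/- replicate 1) reads each. Bone sialoprotein (Ibsp), a marker of bone-forming cells, was at 2461 to 6079 CPM in every library. Skeletal muscle RNA differed with genotype: a list of 24 muscle genes took 1.88% to 4% of counts in Col1a1+/- and 5.73% to 8.92% in wild type, with Ryr1, the calcium release channel of muscle, at a log2 fold change of -1.55 (adjusted p = 0.0279 by edgeR). Wild-type replicate 1 stood apart in neutrophil genes (9 genes, summed 5077 CPM, against 893 to 1548 in the other libraries). The level of Col1a1 did not separate the genotypes (log2 fold change 0.18, adjusted p = 0.78 by edgeR). The ratio of its counts to those of Col1a2, which was not a planned ratio, was 0.775 to 0.836 in Col1a1+/- and 1.25 to 1.32 in wild type. Col1a2 itself was higher in Col1a1+/- without overlap, with means of 71250 against 40040 CPM. Its log2 fold change was 0.83 (adjusted p = 0.159 by edgeR and 0.000838 by DESeq2).

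Compared per length of exon, in RPKM (CPM divided by the exon length in kilobases), the 10 genes spanned a wide range of levels. Plvap, the protein of the diaphragms that bridge pores of leaky capillaries, was the highest at 72 ± 12.6 RPKM (SD, n = 6 libraries). Cdh5, at 31 ± 2.99, and Pecam1, at 24.5 ± 1.48, came next, and the libraries' ranges of these 3 genes did not overlap. Tie1 stood at 21.7 ± 2.28 RPKM; its range overlapped that of Pecam1, but Pecam1 was higher in 6 of 6 libraries. Kdr followed at 11.4 ± 1.18 RPKM, apart from its neighbours on both sides. Ptprb (8.25 ± 0.711), Tek (7.76 ± 0.678) and Emcn (7.66 ± 1.41 RPKM) could not be ordered beyond their spread, with Tek above Emcn in 3 of 6 libraries. Flt1 stood at 6.29 ± 0.588 RPKM, below Emcn in 6 of 6 libraries although their ranges overlapped. Stab2 was the lowest at 2.13 to 2.91 RPKM and overlapped no other. These levels depend on the annotated exon length, which counts every isoform.

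Of the junction proteins that hold endothelial cells together, Cdh5 (VE-cadherin; chromosome 8, 104828257 to 104871143, plus strand, GRCm39) took 127, 116 and 148 CPM in Col1a1+/- (replicates 1, 2 and 3, the order used throughout) and 117, 139 and 136 CPM in wild type. The genotypes overlapped throughout. The log2 fold change was 0.00 (95% interval -0.29 to 0.28; adjusted p = 0.99 by edgeR), which as a fold is an interval of 0.821 to 1.21. Pecam1 (CD31, an adhesion molecule of endothelium that platelets and leukocytes also carry; chromosome 11, 106545043 to 106641454, minus strand) took 146, 143 and 154 CPM in Col1a1+/- and 147, 161 and 166 CPM in wild type. Its highest Col1a1+/- library lay above the lowest wild-type library. The log2 fold change was -0.10 (interval -0.33 to 0.13; adjusted p = 0.627 by edgeR). Pecam1 was also the steadiest of the 10, with a coefficient of variation within genotype of 5.22%, against a median of 10.9% over 10195 genes of at least 10 CPM.

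Emcn encodes endomucin, the sialomucin whose high level defines type H capillaries together with CD31 (chromosome 3, 137046828 to 137137946, plus strand). It took 41.2, 39.8 and 55.7 CPM in Col1a1+/- and 32.6, 40.3 and 38.9 CPM in wild type. Col1a1+/- replicate 3 was the highest library and wild-type replicate 1 the lowest, while the other 4 lay within 38.9 to 41.2 CPM. The log2 fold change was 0.29 (interval -0.05 to 0.63; adjusted p = 0.296 by edgeR), and 0.14 without Col1a1+/- replicate 3. Plvap (chromosome 8, 71950409 to 71964396, minus strand) took 162, 144 and 173 CPM in Col1a1+/- and 103, 149 and 128 CPM in wild type. Only Col1a1+/- replicate 2 and wild-type replicate 2 crossed. Its log2 fold change of 0.34 was the highest of the 10 (interval 0.00 to 0.67; unadjusted p = 0.0488, adjusted p = 0.216 by edgeR), and it was 0.24 without wild-type replicate 1. A log2 fold change at least this large in either direction was found in 38.8% of tested genes.

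Kdr encodes VEGFR2, the receptor that carries most of the VEGF signal (chromosome 5, 76093487 to 76139118, minus strand). It took 101, 96.9 and 119 CPM in Col1a1+/- and 87.3, 106.5 and 104 CPM in wild type, with overlap in both directions. The log2 fold change was 0.09 (interval -0.19 to 0.37; adjusted p = 0.72 by edgeR). Flt1 encodes VEGFR1, which binds VEGF tightly, signals weakly and also exists as a soluble decoy form; counts per gene do not separate the forms (chromosome 5, 147498414 to 147662821, minus strand). It took 83, 73 and 88.5 CPM in Col1a1+/- and 79.4, 91.1 and 94.4 CPM in wild type, again with overlap. The log2 fold change was -0.12 (interval -0.37 to 0.14; adjusted p = 0.607 by edgeR).

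In the angiopoietin system, Tek encodes the receptor TIE2 (chromosome 4, 94627526 to 94763213, plus strand). It took 32.3, 34.1 and 37.9 CPM in Col1a1+/- and 35.3, 38.9 and 40.8 CPM in wild type. Col1a1+/- replicate 3 lay above wild-type replicate 1, and the log2 fold change was -0.14 (interval -0.39 to 0.11; adjusted p = 0.492 by edgeR). Tie1, an orphan relative that joins TIE2 in a complex, lies on the same chromosome (118328388 to 118347258, minus strand) and took 112, 101 and 112 CPM in Col1a1+/-. The wild-type libraries took 88.4, 121 and 105 CPM and so enclosed the Col1a1+/- range, with a log2 fold change of 0.04 (interval -0.25 to 0.33; adjusted p = 0.885 by edgeR). Ptprb encodes VE-PTP, a phosphatase of endothelium that removes phosphate from TIE2 (chromosome 10, 116111428 to 116225440, plus strand). It took 106.5, 96.8 and 106 CPM in Col1a1+/- and 112, 113 and 125 CPM in wild type. The genotypes did not overlap, but the log2 fold change of -0.18 (interval -0.41 to 0.05) did not pass the test (adjusted p = 0.323 by edgeR).

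Stab2 encodes stabilin-2, the hyaluronan scavenger receptor of sinusoids (chromosome 10, 86677062 to 86843889, minus strand; 1.61% of its exon length is shared with the gene Gm16268). It took 21.2, 21.6 and 18.6 CPM in Col1a1+/- and 24.3, 25.3 and 25.5 CPM in wild type. All Col1a1+/- libraries were lower, and the log2 fold change of -0.29 was the lowest of the 10 (SE 0.11, interval -0.54 to -0.03; unadjusted p = 0.031 by edgeR). After adjustment over all genes it did not pass (adjusted p = 0.169 by edgeR). Its value was -0.20 without Col1a1+/- replicate 3, and between -0.33 and -0.27 when any other library was left out. With the muscle score as a covariate it was -0.07, but the muscle list did not overlap between genotypes. Muscle RNA and genotype can therefore hardly be told apart in that fit.

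**Figure D2:**
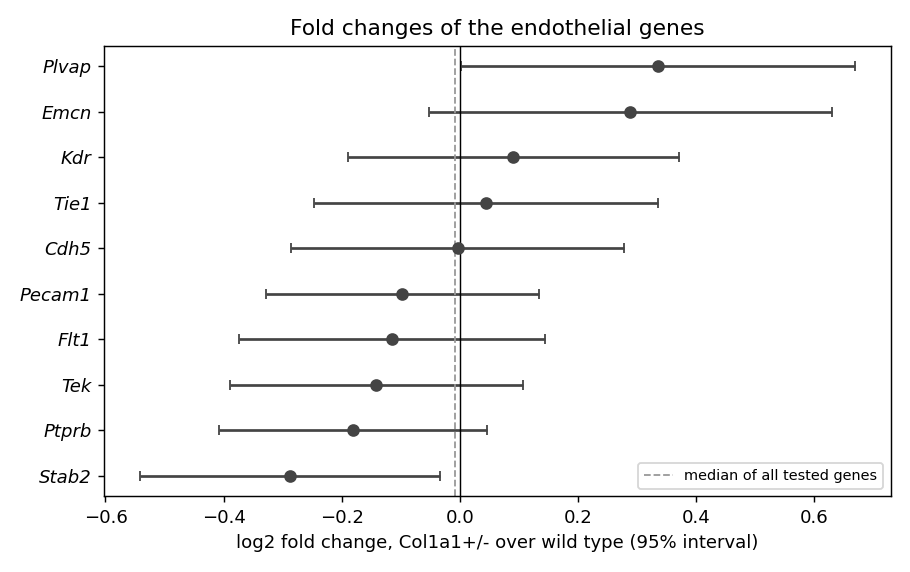
Log2 fold change of each gene, Col1a1+/- over wild type, with its 95% interval from the edgeR fit; the dashed line is the median of all 18514 tested genes. Points run from -0.29 (Stab2) to 0.34 (Plvap), and the intervals of 8 genes include 0, while those of Stab2 and Plvap narrowly do not before adjustment.

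Libraries varied in their endothelial level in an order that mixed the genotypes. The summed level of the 10 genes was 931, 866 and 1013 CPM in Col1a1+/- and 826, 985 and 964 CPM in wild type. Col1a1+/- replicate 3 held the highest value in 4 of the 10 genes and wild-type replicate 3 in 5. Col1a1+/- replicate 2 and wild-type replicate 1 held the lowest in 4 genes each. The highest library exceeded the lowest by 1.16-fold in Pecam1, the least, and by 1.7-fold in Emcn, the most. The 5 genes of at least 5 CPM whose log2 CPM followed the mean of the 10 most closely over the 6 libraries were Gigyf1, Tcf25, Shank3, Fam135a and Bicra. Their root mean square difference from it was 0.0235 to 0.031 on the log2 scale, against a median of 0.204 over 11914 genes. The 5 were picked by this same measure, so the gap to the median was fixed by the choice. The centred mean of the 10 itself ran only from -0.15 to 0.10 over the libraries, and shared regulation was not tested.

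Ratios of counts within a library do not depend on how libraries are scaled, and 7 were compared. The ratio of Emcn to Pecam1 was 0.283, 0.278 and 0.361 in Col1a1+/- against 0.222, 0.25 and 0.234 in wild type, so all Col1a1+/- libraries were higher, by 1.3-fold. Plvap to Pecam1 was 1.11, 1.01 and 1.12 against 0.701, 0.925 and 0.768, also without overlap and 1.36-fold higher. For the pair of VEGF receptors, Kdr to Flt1 was 1.22, 1.33 and 1.35 in Col1a1+/- against 1.1, 1.17 and 1.1 in wild type, 1.15-fold higher without overlap. Stab2 to Pecam1 went the other way, at 0.146, 0.151 and 0.121 in Col1a1+/- against 0.165, 0.157 and 0.154, 0.874 times the wild-type ratio. Its log2 difference of -0.19 was -0.096 without Col1a1+/- replicate 3. For each of these 4 ratios the exact two-sided permutation p was 0.1, the smallest that 3 against 3 libraries allow. Of single tested genes 28.6% did not overlap, and the share among ratios of other gene pairs was not measured. After Benjamini-Hochberg adjustment over the 7 it was 0.175, and with so few libraries no ratio could have passed 0.05. The ratios to Pecam1 share its counts and are not independent.

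The remaining ratios overlapped between genotypes. Cdh5 to Pecam1 averaged 0.88 ± 0.0743 (SD, n = 3) in Col1a1+/- against 0.826 ± 0.0338 in wild type, with an exact permutation p of 0.3 (0.35 adjusted). Tek to Tie1 averaged 0.322 ± 0.0282 and 0.37 ± 0.0417 (SD, n = 3 each; exact permutation p = 0.3, adjusted 0.35). Ptprb to Tek, the phosphatase and its substrate receptor, was the ratio nearest to equal between genotypes, at 2.98 ± 0.28 (SD, n = 3) in Col1a1+/- against 3.05 ± 0.129 in wild type, with an exact permutation p of 0.7 (adjusted 0.7).

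**Figure D3:**
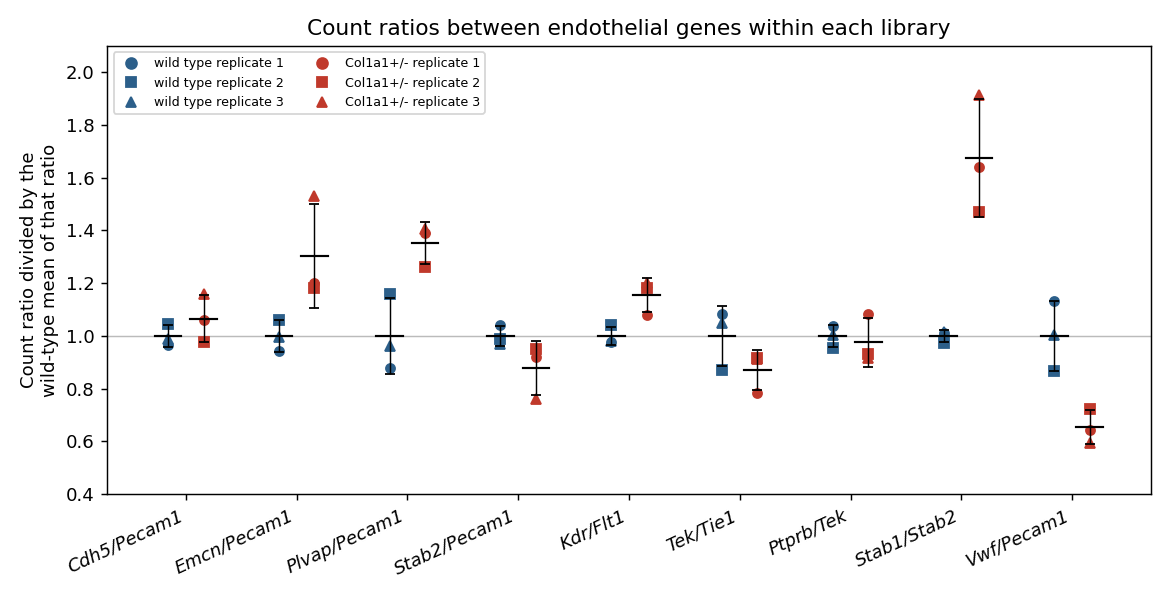
Count ratios within each library, each divided by its wild-type mean; symbols are libraries, bars genotype means and whiskers 1 SD (n = 3). Emcn/Pecam1, Plvap/Pecam1 and Kdr/Flt1 lie higher and Stab2/Pecam1 lower in Col1a1+/- without overlap; Stab1/Stab2 and Vwf/Pecam1 were added after the values were seen.

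The counts in this and the following lists stand beside 4.34% of all tested genes called by edgeR, 12.2% by DESeq2 and 4.34% by limma-voom. An unadjusted p under 0.05 by edgeR was found in 22.8% of all tested genes, and 28.6% did not overlap between genotypes. The fold change lay above 0 in 9090 of the 18514 tested genes and below 0 in 9424. Of 28 other genes common to endothelium, 1 fell by edgeR, DESeq2 and limma-voom, 0 rose and 27 did not pass the test by edgeR. Their log2 fold changes ran from -0.71 to 0.32 around a median of 0.05, which was -0.01 without wild-type replicate 1. The gene that fell was Vwf, von Willebrand factor, the platelet-binding protein that endothelium and megakaryocytes store. It took 47.3, 52.5 and 46.5 CPM in Col1a1+/- and 84.2, 70.7 and 84.3 CPM in wild type, with no overlap (log2 fold change -0.71, SE 0.11, adjusted p = 0.0238 by edgeR). Its count ratio to Pecam1 was 0.301 to 0.366 in Col1a1+/- and 0.439 to 0.573 in wild type, 0.655 times as high (exact permutation p = 0.1, n = 3 each). That ratio was chosen after the values were seen, so its p adds no support. Of 9 tested genes of megakaryocytes, the other source of Vwf, 1 fell by edgeR, 8 did not pass and 8 had a fold change below 0. The median was -0.49 (-0.32 without Col1a1+/- replicate 3), and DESeq2 called 3 lower; Gp1ba, the platelet receptor for von Willebrand factor, was the gene that fell (log2 fold change -0.90, adjusted p = 0.043 by edgeR). The summed level of the megakaryocyte list was 551 to 565 CPM in Col1a1+/- and 620 to 706 CPM in wild type. Of this sum Itgb3, the 1 gene with a fold change above 0 (log2 fold change 0.01), took 266 to 360 and 298 to 323 CPM. The part of megakaryocytes in the Vwf result was not tested. Other values in the list were those of Clec14a (log2 fold change 0.32, adjusted p = 0.175 by edgeR), She (0.26, adjusted p = 0.268 by edgeR) and Adgrf5 (-0.24, adjusted p = 0.267 by edgeR).

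Transcription factors of endothelium had a median of 0.00 over 16 genes, of which 1 fell and 0 rose by edgeR, DESeq2 and limma-voom. Mef2c, which skeletal muscle also uses as a regulator, fell from 510 ± 34.5 to 321 ± 33 CPM (SD, n = 3 each; log2 fold change -0.67, SE 0.13, adjusted p = 0.0341 by edgeR). The muscle list was lower in the same libraries, with 10 of 24 genes called lower by edgeR and 23 by DESeq2, and its part in the Mef2c result was not tested. Lyl1, a factor of blood and vessel cells, stood at -0.54 (adjusted p = 0.195 by edgeR), with its highest value in wild-type replicate 1, the library rich in neutrophil transcripts. Sox18 and Elk3 stood at 0.28 and 0.23 (adjusted p = 0.384 and 0.249 by edgeR).

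The ligands and other receptors of the VEGF system held 9 genes, of which 0 passed the test by edgeR. An unadjusted p under 0.05 by edgeR was found in 5 of the 9, beside 22.8% of all tested genes. Genotypes did not overlap in 6, 3 higher and 3 lower, beside 28.6% of all tested genes. DESeq2 called 3 of the 9, Nrp2, Vegfb and Vegfd, and limma-voom 0. Without wild-type replicate 1, edgeR called 3 of the 9, 1 higher and 2 lower. Nrp2, a neuropilin co-receptor, took 834, 656 and 759 CPM in Col1a1+/- and 476, 572 and 468 CPM in wild type (log2 fold change 0.57, adjusted p = 0.0678 by edgeR). The placental growth factor gene Pgf, a ligand of VEGFR1, stood at 0.52 (adjusted p = 0.132 by edgeR). Vegfd, at 1.28 ± 0.333 CPM against 3.5 ± 1.18 (SD, n = 3 each), and Vegfb, at 30.1 ± 7.18 against 60.8 ± 20.4, were lower with log2 fold changes of -1.45 and -1.01 (adjusted p = 0.0509 and 0.0932 by edgeR). With the muscle score as a covariate Vegfb turned to 0.12. The muscle list did not overlap between genotypes, so muscle RNA and genotype can hardly be told apart in that fit. Of the angiopoietins, the TIE2 agonist Angpt1 took 15.5, 14.5 and 10.6 CPM in Col1a1+/- and 19.4, 17.4 and 18.1 CPM in wild type, without overlap (log2 fold change -0.44, adjusted p = 0.149 by edgeR). Angpt2, which can oppose it, stood at 0.36 (adjusted p = 0.229 by edgeR) and Angpt4 at 0.15 (adjusted p = 0.52 by edgeR). None of the 3 passed by edgeR, DESeq2 or limma-voom, and 1 had an unadjusted p under 0.05.

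Of 13 Notch genes, a pathway that sets arterial fate and restrains sprouting, 12 had a fold change above 0, and 1 rose and 0 fell by edgeR, with a median of 0.27. DESeq2 called 4 of the 13 higher, beside 4.26% of all tested genes, and limma-voom 1, beside 1.4%. Genotypes did not overlap in 6 of the 13, all higher in Col1a1+/-, beside 14% of all tested genes. Hey1, a Notch target that osteoblasts also switch on in response to bone morphogenetic proteins, took 52.8, 49.7 and 59 CPM in Col1a1+/- and 30.7, 33.1 and 39.8 CPM in wild type (log2 fold change 0.64, SE 0.13, adjusted p = 0.0336 by edgeR). Lfng, a glycosyltransferase that modifies Notch, stood at 0.38 (adjusted p = 0.061 by edgeR and 0.0285 by DESeq2), and the ligand gene Jag2 at -0.25 (adjusted p = 0.257 by edgeR). Osteoblast genes were higher in the same libraries, 3 of 6 called by edgeR (4 by DESeq2) and a median of 0.84 (0.55 without wild-type replicate 1), with Ibsp (bone sialoprotein) at 1.09 (adjusted p = 0.0253 by edgeR). The summed osteoblast level was 10080 to 10820 CPM in Col1a1+/- and 4307 to 6291 CPM in wild type, and its part in the Hey1 result was not tested.

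Of 9 arterial genes 2 rose by edgeR, DESeq2 and limma-voom, Hey1 and the netrin receptor gene Unc5b, and 0 fell. The arterial median was 0.10 (0.20 without Col1a1+/- replicate 3). Unc5b rose from 178 ± 29.1 to 282 ± 9.06 CPM (SD, n = 3 each; log2 fold change 0.67, adjusted p = 0.0376 by edgeR). Its mean over the 6 libraries was 36.8 RPKM, above the 24.5 of Pecam1. The osteoblast list was higher in the same libraries, and the part of other cells in the Unc5b result was not tested. The arterial connexin gene Gja5 stood at -0.46 (adjusted p = 0.157 by edgeR) and the kinase gene Bmx at -0.75 (adjusted p = 0.123 by edgeR), both lower without overlap. Of the arterial genes, 3 were higher and 2 lower without overlap, beside 14% and 14.5% of all tested genes. Of 8 tip and growing vessel genes 2 rose by the same 3 tools, Unc5b and the potassium channel subunit gene Kcne3, and 0 fell. In this list 7 genes had a fold change above 0, and the median was 0.49. Genotypes did not overlap in 4 of its genes, all higher in Col1a1+/-, beside 14% of all tested genes that were higher without overlap. The summed level of the list was 444.5 to 479 CPM in Col1a1+/- and 277 to 382 CPM in wild type. Unc5b alone took 272 to 288 and 150 to 208 CPM of it, so the sum mostly follows that gene. Kcne3 took 8.66, 9.51 and 9.08 CPM in Col1a1+/- and 5.21, 4.96 and 4.57 CPM in wild type (log2 fold change 0.88, SE 0.17, adjusted p = 0.0312 by edgeR). Esm1, a secreted proteoglycan of tip cells, stood at -0.04 (adjusted p = 0.925 by edgeR).

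Among 12 sinusoidal and venous genes 1 rose and 0 fell by edgeR, with a median of 0.23 (0.12 without Col1a1+/- replicate 3). DESeq2 called that gene higher and 2 lower, Selp and Ackr1. The gene that rose was Stab1, stabilin-1, the relative of Stab2 that macrophages also carry. It took 156, 143 and 160 CPM in Col1a1+/- and 110, 110 and 116 CPM in wild type (log2 fold change 0.45, SE 0.10, adjusted p = 0.0435 by edgeR). The ratio of Stab1 to Stab2 counts was 7.37, 6.6 and 8.59 in Col1a1+/- against 4.54, 4.37 and 4.55 in wild type, 1.67-fold higher without overlap (exact permutation p = 0.1, n = 3 each), a ratio chosen after the values were seen. Macrophage genes had a median of 0.30, with 10 of 10 above 0 and 0 called by edgeR (6 at an unadjusted p under 0.05; DESeq2 called 1, limma-voom 0), and Cd68 at 0.49 (adjusted p = 0.0696 by edgeR). Their summed level was 786 to 898 CPM in Col1a1+/- and 634 to 732 CPM in wild type, and its part in the Stab1 result was not tested. The venous genes Selp and Ackr1 stood at -0.81 and -0.62 (adjusted p = 0.0741 and 0.0959 by edgeR, 0.0156 and 0.0344 by DESeq2), and Ehd3 at 0.38 (adjusted p = 0.132 by edgeR). P-selectin, the product of Selp, is also a protein of platelets.

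Genes of capillaries in muscle and fat had a median of -0.46 over 12 genes (-0.26 without Col1a1+/- replicate 3), of which 1 fell and 0 rose by edgeR. DESeq2 called 4 of the 12 lower, beside 7.93% of all tested genes. Rgcc, a cell cycle regulator, took 41.7, 38.4 and 30.1 CPM in Col1a1+/- and 53.2, 55.8 and 53.1 CPM in wild type (log2 fold change -0.56, SE 0.13, adjusted p = 0.0481 by edgeR). Timp4, a metalloproteinase inhibitor, stood at -1.44 (adjusted p = 0.0576 by edgeR, 0.000346 by DESeq2), Btnl9 at 0.31 (adjusted p = 0.228 by edgeR) and Gpihbp1, which anchors lipoprotein lipase to capillaries, at 0.07 (adjusted p = 0.867 by edgeR). The muscle list was lower in Col1a1+/-, as given above, and its part in these values was not tested.

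Of 13 genes of mural cells, the pericytes and smooth muscle cells of vessel walls, 1 rose and 1 fell by edgeR (2 and 2 by DESeq2), with a median of -0.24 (-0.13 without wild-type replicate 3). Cspg4, the NG2 proteoglycan of pericytes that other stromal cells also make, rose from 66.5 ± 13.3 to 108 ± 9.15 CPM (SD, n = 3 each; log2 fold change 0.70, adjusted p = 0.0405 by edgeR). Myh11, the smooth muscle myosin heavy chain, fell from 38.3 ± 4.24 to 24.5 ± 1.51 CPM (SD, n = 3 each; log2 fold change -0.65, adjusted p = 0.0297 by edgeR). Of 6 lymphatic genes 0 passed by edgeR, DESeq2 or limma-voom (1 at an unadjusted p under 0.05 by edgeR), with a median of -0.10 that turned to 0.12 without wild-type replicate 3, Lyve1 at 0.48 (adjusted p = 0.303 by edgeR) and Mmrn1 at -0.47 (adjusted p = 0.188 by edgeR).

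Other cells of the bone gave 0 calls by edgeR in 9 neutrophil genes (median -1.23, but -0.37 without wild-type replicate 1; 3 at an unadjusted p under 0.05; DESeq2 and limma-voom 0) and in 8 erythroid genes (median -0.13, 0.07 without wild-type replicate 2; 0 unadjusted; both other tools 0). The 7 osteocyte genes (median 0.52, 1 unadjusted) and 5 marrow stroma genes (median -0.15, 2 unadjusted) also gave 0 calls by edgeR and limma-voom, and 1 each by DESeq2. Of 5 adipocyte genes 1 fell, the lipid droplet gene Plin4 (log2 fold change -1.15, adjusted p = 0.0238 by edgeR), with a list median of 0.09 (-0.14 without Col1a1+/- replicate 1). The other 4 had a fold change above 0. The muscle list was lower in the same libraries, and its part in the Plin4 result was not tested.

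**Figure D4:**
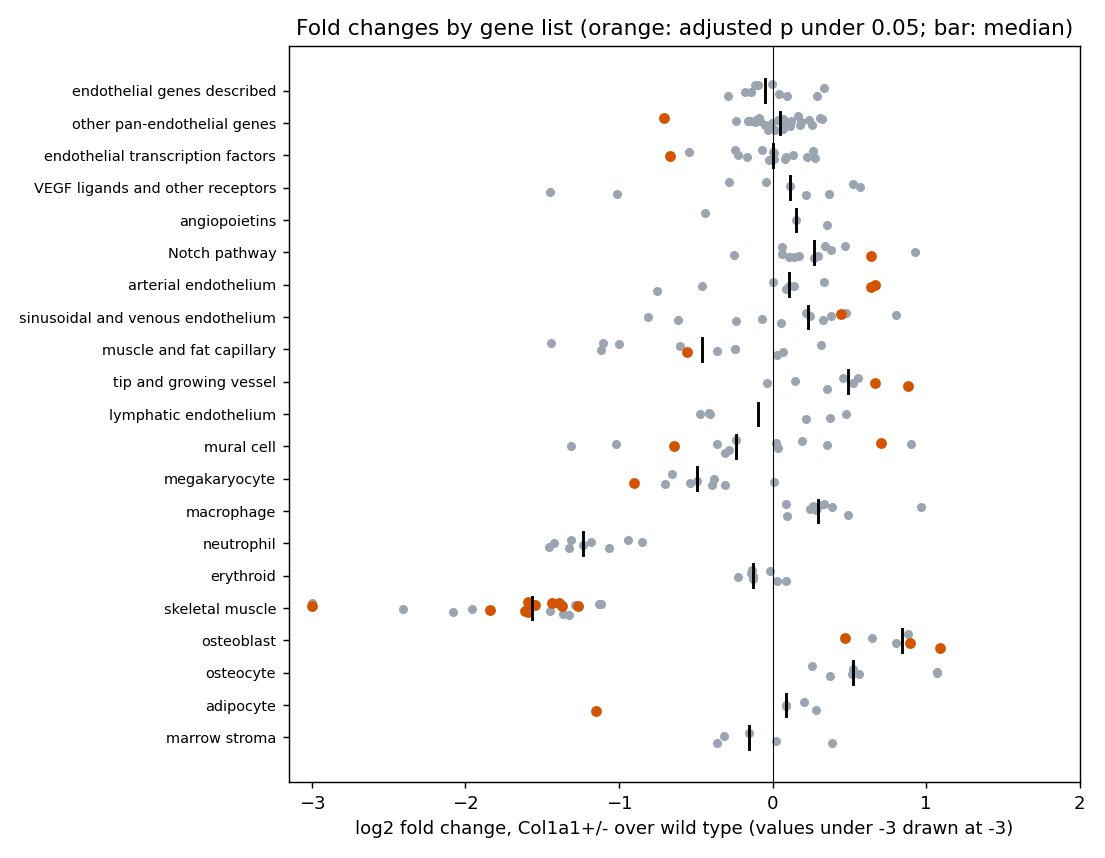
Log2 fold change of every tested gene by list, Col1a1+/- over wild type, with called genes in orange and the list median as a bar; values under -3 are drawn at -3. The 10 endothelial genes and the 28 other pan-endothelial genes lie near 0, with medians of -0.05 and 0.05, whereas muscle genes lie lower (-1.57) and osteoblast genes higher (0.84).

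The 7 called genes of the endothelial lists, Vwf, Mef2c, Hey1, Unc5b, Stab1, Rgcc and Kcne3, were each called by DESeq2 and limma-voom as well. By edgeR none of them was called without Col1a1+/- replicate 1, Col1a1+/- replicate 3, wild-type replicate 2 or wild-type replicate 3, where 0, 44, 8 and 0 of all tested genes were called and 3275, 3111, 3783 and 3239 had an unadjusted p under 0.05. Without Col1a1+/- replicate 2, Vwf, Mef2c and Hey1 were called, and without wild-type replicate 1 all 7 were, among 930 and 1766 calls over all genes. Without wild-type replicate 1 the Notch, sinusoidal and venous, and capillary lists each had 2 called genes in place of 1, in the same direction. Their log2 fold changes with a library left out stayed at -0.79 to -0.64 for Vwf, -0.75 to -0.58 for Mef2c, 0.59 to 0.76 for Hey1, 0.59 to 0.79 for Unc5b, 0.44 to 0.50 for Stab1, -0.64 to -0.41 for Rgcc and 0.84 to 0.96 for Kcne3. With the muscle covariate, which can hardly be told apart from genotype, all 7 had the same direction and none was called. With the erythroid and neutrophil covariate, chosen after seeing the data, only Vwf was called. When libraries were scaled on osteocyte genes, which lowered the median of all genes to -0.74, Hey1, Unc5b and Stab1 turned below 0, and the median of the 10 endothelial genes was -0.78. Relative to the median of all genes, that of the 10 was -0.04 under both scalings. Rescaling shifts all genes by about the same amount, so this difference could hardly change and tests nothing.

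**Figure D5:**
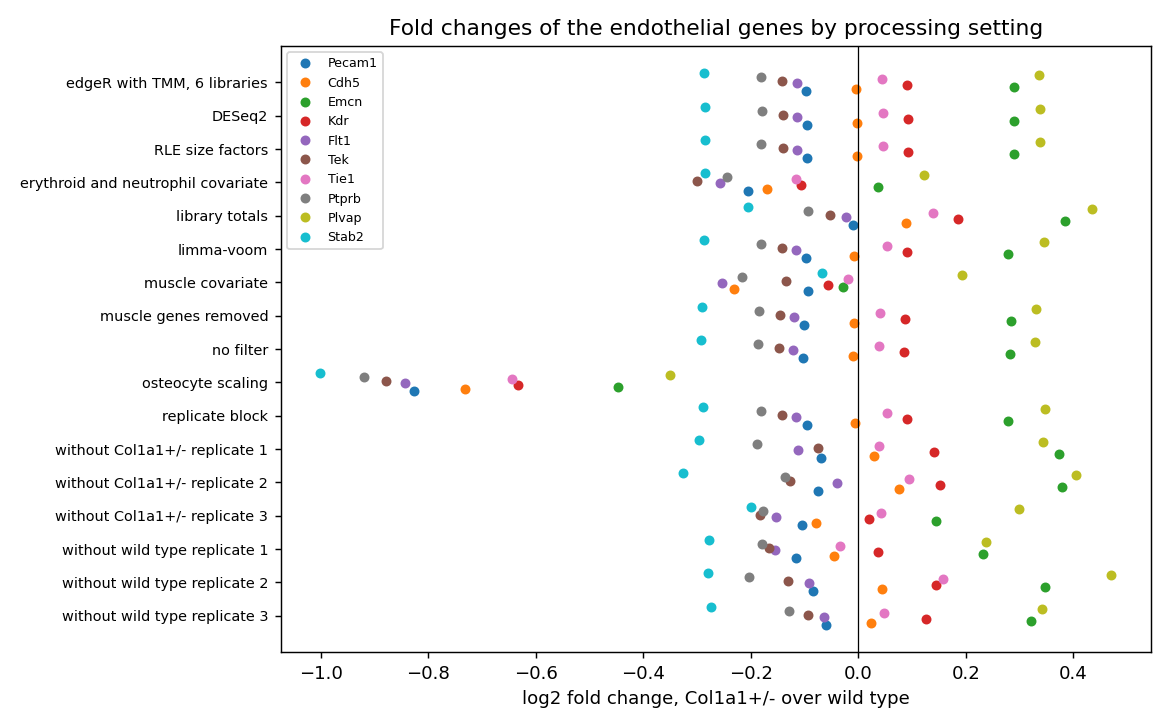
Log2 fold change of the 10 genes under each processing setting, 1 row per setting and 1 colour per gene. Stab2, Ptprb, Tek, Flt1 and Pecam1 lie below 0 in every row and Plvap lies above 0 in all except the row scaled on osteocyte genes, where all 10 lie below 0.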

How the data were processed

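Poly-A RNA of 6 tibia libraries (3 Col1a1+/-, 3 wild type) was measured. The deposited values are raw counts, made, per the file headers, by featureCounts 2.0.3 over exons of Ensembl release 107 on GRCm39, unstranded, with each mate of a pair counted as 1 read; Trimmomatic 0.39, HISAT2 2.2.1 and SAMtools 1.20 came before, per the submitters' processing notes. Symbols were matched by identifier (52073 of 56748, 91.8%).

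Genes were kept by filterByExpr (minimum count 10), scaled by TMM and tested by genotype with the quasi-likelihood F test of edgeR 4.0.16 (R 4.3.3), two-sided, at a Benjamini-Hochberg adjusted p of 0.05. DESeq2 1.42.0, limma 3.58.1 (voom), other scalings and filters, covariates, a replicate block and omission of each library were alternatives. SE is the absolute log2 fold change over the square root of F. Besides the 10 members, 20 gene lists, which share some genes, were described by counts and medians. Scripts were tested on simulated data.

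Members and lists were chosen with earlier results of these data known. Named genes are the 10 members, up to 4 per endothelial list and 2 per other list (smallest p in each direction), the 5 most alike in pattern, Col1a1 and Col1a2. Library pairs within a genotype differed by 23.3 to 78.1 times counting variance, so none was a copy. Total counts were 26.8 to 32.4 M reads, in which the mates of a pair count singly. Counting error weighs most in genes of few reads, such as Kcne3 with 132 to 289 per library.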

Additional observations from a re-analysis of the deposited data

How the results depend on the processing

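No member was called under any of the 16 alternatives. The count of all called genes, 803, was 2256 with DESeq2, 1327 with library totals (44.3% of calls higher, against 33%), 1472 without the filter, 2388 with osteocyte scaling (0.168% higher), 0 with the muscle covariate (1110 at an unadjusted p under 0.05 by edgeR), 126 with the replicate block and 0 to 1766 with a library left out; the cause was not tested. The replicate numbers are not stated to pair samples, and deviations of same-numbered libraries correlated across genes at 0.11, 0.04 and -0.12; the block left 0 of the 7 called endothelial list genes. The median of the members, -0.05, was -0.78 with osteocyte scaling, -0.19 with the erythroid and neutrophil covariate, which was added after seeing the data, and -0.09 to 0.02 with a library left out. With a library left out the log2 ratio differences ranged from 0.027 to 0.15 for Cdh5/Pecam1, 0.25 to 0.44 for Emcn/Pecam1, 0.36 to 0.56 for Plvap/Pecam1, -0.26 to -0.096 for Stab2/Pecam1, 0.18 to 0.25 for Kdr/Flt1, -0.29 to -0.12 for Tek/Tie1 and -0.11 to 0.0047 for Ptprb/Tek. List medians that took both signs with a library left out were those of the other pan-endothelial genes (-0.013 to 0.089), transcription factors (-0.061 to 0.071), lymphatic (-0.091 to 0.12), erythroid (-0.21 to 0.074) and adipocyte genes (-0.14 to 0.36).

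Signs that turned, as log2 fold changes, were as follows. With osteocyte scaling they were Emcn -0.45, Kdr -0.63, Tie1 -0.64, Plvap -0.35, Clec14a -0.41, She -0.51, Elk3 -0.51, Sox18 -0.38, Nrp2 -0.13, Pgf -0.15, Angpt2 -0.38, Angpt4 -0.53, Hey1 -0.10, Lfng -0.37, Unc5b -0.014, Stab1 -0.29, Ehd3 -0.37, Btnl9 -0.38, Gpihbp1 -0.59, Cd68 -0.23, Lyve1 -0.15 and Col1a1 -0.48. With the muscle covariate, which can hardly be told apart from genotype, they were Emcn -0.030, Kdr -0.058, Tie1 -0.020, Elk3 -0.072, Vegfb 0.12, Jag2 0.12, Btnl9 -0.018 and Esm1 0.029. The erythroid and neutrophil covariate gave Kdr -0.11, Tie1 -0.12, Gpihbp1 -0.23, Esm1 0.068 and Col1a1 -0.11, and library totals gave Cdh5 0.089 and Esm1 0.043. With a library left out the ranges were -0.078 to 0.075 for Cdh5, -0.035 to 0.16 for Tie1, -0.23 to 0.098 for Esm1 and -0.10 to 0.181 for Gpihbp1. The member with the fewest reads, Stab2, had 528 to 783 per library, and its coefficient of variation within genotype was 5.88%. Mates were tallied singly, so the number of separate RNA fragments was lower than these values. The part of counting error in the Stab2 result was not tested. Some genes of the lists had fewer reads, such as Vegfd with 26 to 135 and Kcne3 with 132 to 289 per library.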
